A study of Mus musculus with 9 samples.

Results

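Regenerating islet-derived (Reg) lectins and a set of inducible defence proteins form the chemical barrier that the intestinal epithelium holds against luminal bacteria. The 10 genes described here are Reg1, Reg3a, Reg3b, Reg3g, Reg4, Retnlb, Dmbt1, Saa1, Nos2 and Duox2, out of 31685 genes in the table. They were selected on their levels in the same 9 mice, so their values are given as a description and no test is read from them. Of the 10, 9 had at least 1 FPKM (fragments per kilobase of exon, scaled to the reads of the library, a level per length) in at least 3 mice and entered the fit, and Retnlb did not.

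The RNA came from jejunum of male wild-type C57BL/6J mice aged 6 to 8 weeks, taken on day 3, with 3 mice in each of 3 groups. Control mice had no treatment. TAI mice received 12 Gy of total abdominal irradiation in a single X-ray dose, followed by PBS. TAI/IVIg mice received the same 12 Gy and 500 mg/kg of human intravenous immunoglobulin within 1 h, to be repeated every 3 days. The study's methods describe anaesthesia for the irradiation. The labels give the control mice no sham procedure or injection, so the difference between TAI and control holds irradiation, its anaesthesia and handling, and PBS together. All samples carry the same batch label. No pooling of mice is mentioned and the segment taken is not described, and p-values measure the spread between these samples.

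Several of these genes work together in the gut wall. Reg3b and Reg3g are secreted C-type lectins that bind bacterial peptidoglycan or lipopolysaccharide and keep bacteria away from the villus surface, and the cytokine IL-22 induces them in epithelial cells through STAT3. Duox2 is an epithelial NADPH oxidase that releases hydrogen peroxide at the apical membrane and needs its maturation factor Duoxa2, while Nos2 makes nitric oxide and Saa1 is an acute-phase protein. Dmbt1 is a scavenger receptor glycoprotein that aggregates bacteria, and Retnlb is a goblet cell product.

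Reg1, Reg3a, Reg3b and Reg3g lie in 1 cluster of 6 Reg genes with Reg2 and Reg3d, which spans 98216 bases at chr6:78370657-78468872 in the GRCm38 build. Promoter windows from RefSeq (GRCm38.p6) were found for 7 of the 10 genes, and those of the 3 Reg3 genes among them and of their neighbour Reg3d are shown because the 4 genes lie in the same cluster and their levels differed. Reg3b, Reg3d and Reg3a are next to each other, and Reg3g lies at the far end beyond Reg2 and Reg1. Each run is the 250 bases before the RefSeq start, 5′ to 3′ on the gene's own strand, with TTCNNNGAA (the STAT motif) and TATAAA on that strand in capitals.
Reg3b, chr6:78370635-78370884, plus strand: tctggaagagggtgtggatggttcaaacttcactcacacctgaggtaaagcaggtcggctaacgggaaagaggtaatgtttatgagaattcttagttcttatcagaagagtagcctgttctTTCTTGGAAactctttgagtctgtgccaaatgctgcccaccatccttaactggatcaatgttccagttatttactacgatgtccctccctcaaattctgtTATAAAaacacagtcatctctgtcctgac
Reg3g, chr6:78468875-78469124, minus strand: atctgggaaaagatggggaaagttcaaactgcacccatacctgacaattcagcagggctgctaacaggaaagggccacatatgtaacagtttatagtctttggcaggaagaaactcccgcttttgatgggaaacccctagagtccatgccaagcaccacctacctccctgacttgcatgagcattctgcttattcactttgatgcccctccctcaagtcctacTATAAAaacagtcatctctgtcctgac
Reg3a, chr6:78380459-78380708, plus strand: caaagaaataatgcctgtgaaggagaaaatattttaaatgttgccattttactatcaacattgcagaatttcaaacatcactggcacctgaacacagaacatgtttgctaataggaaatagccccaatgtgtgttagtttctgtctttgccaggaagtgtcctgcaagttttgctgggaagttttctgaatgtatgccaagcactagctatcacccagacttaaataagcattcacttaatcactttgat
Reg3d, chr6:78378866-78379115, minus strand: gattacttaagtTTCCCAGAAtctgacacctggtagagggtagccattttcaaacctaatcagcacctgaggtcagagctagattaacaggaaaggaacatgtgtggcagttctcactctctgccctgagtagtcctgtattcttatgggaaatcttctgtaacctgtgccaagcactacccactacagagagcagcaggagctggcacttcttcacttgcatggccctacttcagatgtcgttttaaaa

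TTCNNNGAA began at position -129 from the start in Reg3b and at -238 in Reg3d, and 8.3% of 32851 promoters of the same length held it on either strand. TATAAA began at -29 in Reg3b and -27 in Reg3g, and a further match in Reg3g at -161 lay on the other strand; 13.6% of promoters held it. The third motif searched, TTGCNNAA (the C/EBP motif), began at -190 in Reg3a and at -182 in Saa1, and 10.8% of promoters held it. TATAAA also began at -30 in Reg1 and Duoxa2, with a second match in Reg1 35 bases after the start on the other strand. The windows scanned held 50 bases after the start as well, which are not shown. The Reg3b and Reg3g stretches were identical at 70.0% of the 250 bases when aligned, and the other pairs of the 4 at 55.6% to 62.0%. These are matches of letters and were not compared with any binding data.

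Reg3b and Reg3g were the most abundant of the 10 genes by level per length, and neither separated the groups. Reg3b stood at 11698, 2956 and 6331 FPKM in control mice 1, 2 and 3, at 5031, 8230 and 3104 in the TAI mice, and at 3085, 6363 and 11811 in the TAI/IVIg mice. Reg3g stood at 4090, 1390 and 2307 FPKM in the control mice, at 1405, 2172 and 1040 in the TAI mice, and at 603, 1632 and 2771 in the TAI/IVIg mice. Within each group both lectins put the 3 mice in the same order, and control mouse 1 and TAI/IVIg mouse 3 were the highest for both. Reg3b spanned 2956 to 11698 FPKM within the control group alone, a wider gap than that between its group means of 6995 ± 4409, 5455 ± 2590 and 7086 ± 4408 (SD, n = 3 each). Reg3b held between 0.815% and 3.25% of all FPKM in a mouse, and Reg3g between 0.171% and 1.14%. On the log2(FPKM + 1) scale the Reg3b difference was -0.26 (SE 0.63) for TAI against control, 0.03 (SE 0.63) for TAI/IVIg against control and 0.28 (SE 0.63) for TAI/IVIg against TAI. The Reg3g differences in the same order were -0.68, -0.75 and -0.07 (SE 0.58 each). Because this was bulk tissue, fewer cells of a type and less RNA per cell cannot be told apart here or below.

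**Figure D1:**
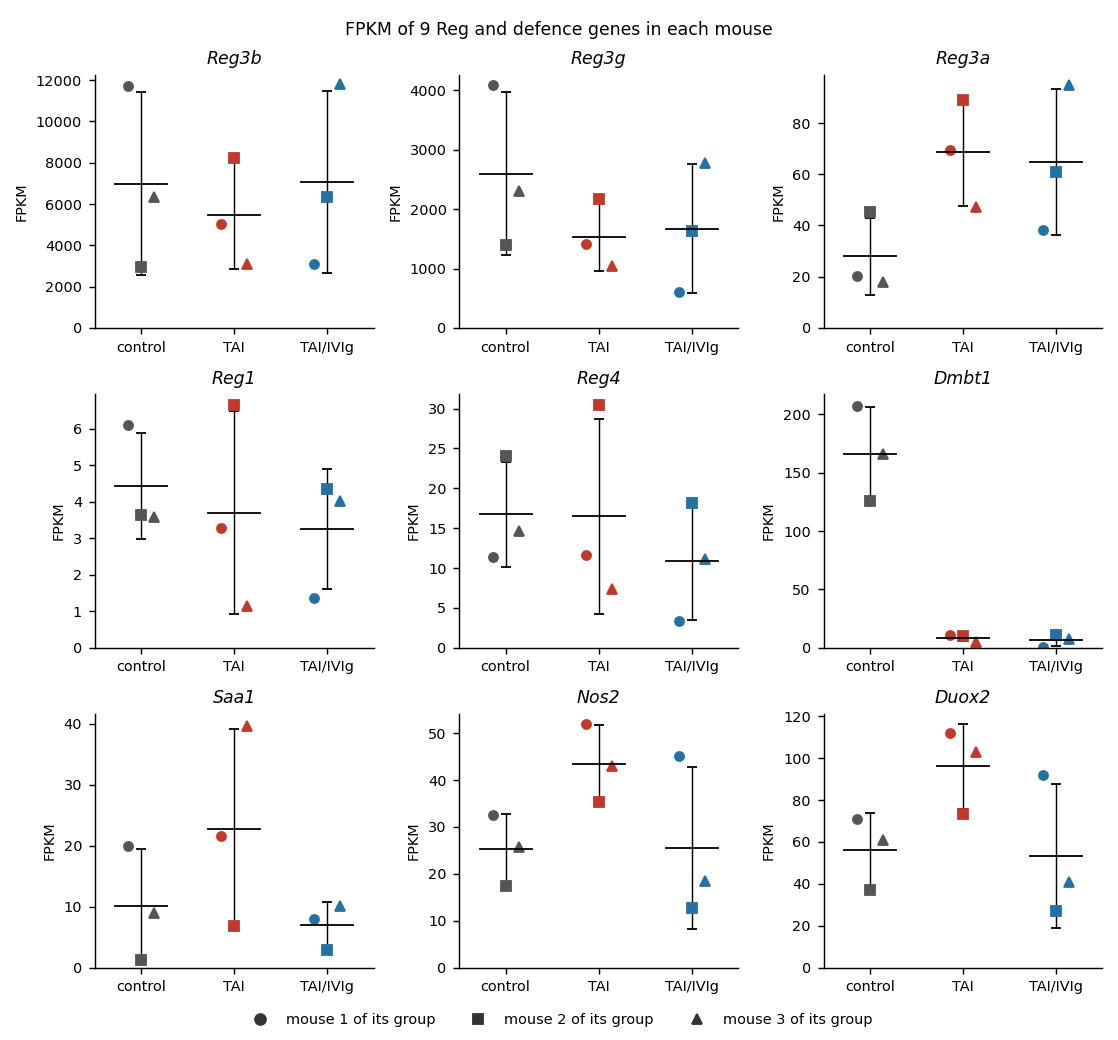
FPKM (linear axes from 0) of the 9 genes that passed the filter, with 1 point per mouse, its shape giving the mouse number, a bar at the group mean and whiskers of 1 SD (n = 3 mice a group). Dmbt1 stood at 126 to 207 in the control mice and at no more than 11.3 in any irradiated mouse, whereas the 3 groups overlapped for Reg3b and Reg3g.

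The ratio of these lectins did not overlap between the groups, though by narrow margins, while the level of each did overlap. The ratio of Reg3b to Reg3g FPKM, noticed after the values were seen, was 2.86, 2.13 and 2.74 in the control mice. It was 3.58, 3.79 and 2.98 in the TAI mice and 5.11, 3.90 and 4.26 in the TAI/IVIg mice. The group means were 2.58 ± 0.394, 3.45 ± 0.418 and 4.42 ± 0.623 (SD, n = 3 each), and no 2 groups overlapped. The highest control ratio was 2.86 against a lowest TAI ratio of 2.98. The highest TAI ratio was 3.79 against a lowest TAI/IVIg ratio of 3.90. A ratio within a library does not depend on how that library was scaled. This ratio was not tested because it was picked from these values. How many ratios of other genes separate the groups was not counted. Neither gene shared a 50-base stretch of exon with another gene.

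**Figure D2:**
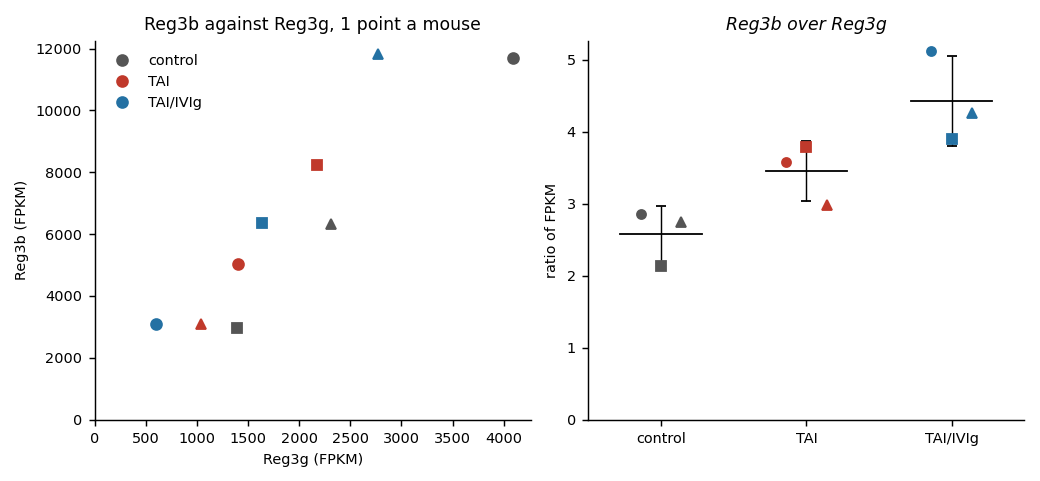
Left, Reg3b against Reg3g in FPKM, 1 point per mouse, coloured by group and shaped by mouse number; right, the ratio of the 2 levels per mouse, with group means and whiskers of 1 SD (n = 3). The ratio ran from 2.13 to 2.86 in control, 2.98 to 3.79 in TAI and 3.90 to 5.11 in TAI/IVIg mice.

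Reg3a, another secreted lectin of the cluster, was far less abundant and stood higher in the irradiated mice. Its levels were 20.4, 45.3 and 18.1 FPKM in control mice, 69.6, 89.2 and 47.1 in TAI mice and 38.4, 60.8 and 94.8 in TAI/IVIg mice. Every TAI mouse was above every control mouse, while TAI/IVIg mouse 1 lay below control mouse 2. The log2 difference was 1.34 (SE 0.42) for TAI and 1.21 (SE 0.42) for TAI/IVIg, both against the same control mice, and -0.13 (SE 0.42) between the irradiated groups.

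Reg3d, the Reg3 gene beside it and not one of the 10, was called in both comparisons with control. It measured 3.02, 1.23 and 1.99 FPKM in control, 19.6, 20.6 and 8.48 in TAI and 9.39, 6.40 and 9.07 in TAI/IVIg mice. Both irradiated groups lay above control in every mouse. On the FPKM + 1 scale Reg3d rose 5.39-fold in TAI (log2 difference 2.43, SE 0.34; limma adjusted p = 0.00165) and 3.07-fold in TAI/IVIg (1.62, SE 0.34; limma adjusted p = 0.00518). Its mean FPKM rose by more, from 2.08 without treatment to 16.2 after TAI alone and 8.29 with IVIg added. All folds given below are also of FPKM + 1, and can lie under the fold of FPKM where levels are low. Between the irradiated groups the difference was -0.81 (SE 0.34; limma adjusted p = 0.378), which did not pass the threshold. Both calls held under all alternatives run. Reg2, the remaining gene of the cluster, was at 0 to 0.129 FPKM and was not tested.

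Reg1 and Reg4, which are also secreted lectins, were low and overlapped in all groups. Reg1 measured 6.11, 3.63 and 3.58 FPKM in control, 3.29, 6.66 and 1.15 in TAI and 1.35, 4.36 and 4.02 in TAI/IVIg mice. Reg1 is best known from the exocrine pancreas. The pancreatic acinar markers Cpa1, Prss2 and Cela2a were at 0 in 6, 7 and 8 of the 9 mice, with no value above 0.0709 FPKM. Others of the list, Cpb1, Ctrb1 and Pnlip, were at 0 in 0, 2 and 4 mice and reached 0.224, 0.312 and 0.309 FPKM. The 11 acinar markers in the table summed to 4.82 to 23.1 FPKM in control, 9.67 to 22.5 in TAI and 4.90 to 10.3 in TAI/IVIg mice, nearly all from Clps and Cela1.

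Reg4, made by enteroendocrine and other secretory cells, measured 11.4, 24.1 and 14.6 FPKM in control, 11.7, 30.4 and 7.35 in TAI and 3.38, 18.2 and 11.1 in TAI/IVIg mice. Mouse 2 was the highest of each group. The 12 Paneth cell markers, led by the defensins Defa24 and Defa22, also summed highest in mouse 2 of each group, at 7566, 7509 and 2031 FPKM. In mice 1 and 3 the Paneth sums were 1465 and 1450 in control, 2779 and 3772 in TAI and 483 and 198 in TAI/IVIg. These mice stood in the opposite order for Reg4 in each group. The part of Paneth cells in the Reg4 spread was not tested. The log2 differences of Reg4 were -0.18, -0.75 and -0.57 (SE 0.61 each) for TAI against control, TAI/IVIg against control and TAI/IVIg against TAI, and those of Reg1 were -0.36, -0.42 and -0.05 (SE 0.47 each).

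Retnlb, which acts on bacteria and helminths in the mucus, was barely detected. It had 5, 2 and 6 reads in the control mice, 0, 2 and 0 in the TAI mice and 0, 1 and 0 in the TAI/IVIg mice. A count of 0 allows up to 3 reads, for counting error only. All irradiated mice were at or under that limit and the control mice close to it, so no fold is given. The 10 goblet markers summed to 2324 to 3117 FPKM in control, 3584 to 4679 in TAI and 2050 to 3506 in TAI/IVIg mice.

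Dmbt1, at chr7:131032053-131121630, had the largest log2 difference of the 9 genes tested. It stood at 207, 126 and 166 FPKM in the control mice, 10.8, 10.5 and 4.92 in the TAI mice and 1.02, 11.3 and 7.69 in the TAI/IVIg mice. All 6 irradiated mice were below all control mice. The log2 difference was -4.14 (SE 0.60) for TAI and -4.77 (SE 0.60) for TAI/IVIg against control. Between the irradiated groups it was -0.63 (SE 0.60), and without TAI/IVIg mouse 1, the lowest of all, it was 0.15.

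Lypd8, a GPI-anchored protein that binds the flagella of bacteria and is not one of the 10, was lower in the same mice. It fell from 8041, 8284 and 6348 FPKM in control to 768, 1031 and 374 in TAI mice (log2 difference -3.49, SE 0.44; limma adjusted p = 0.00117) and to 349, 414 and 153 in TAI/IVIg mice (-4.73, SE 0.44; limma adjusted p = 0.000232). The 2 genes whose pattern over the 9 mice was most like that of Dmbt1 were Ms4a18 and Mgam2-ps, at Pearson r of 0.993 and 0.991.

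Duox2 and Nos2, which make hydrogen peroxide and nitric oxide, were higher in the TAI mice than in any control mouse. Duox2, at chr2:122279247-122298449, measured 70.9, 36.8 and 60.7 FPKM in control, 112, 73.4 and 103 in TAI and 91.9, 27.0 and 40.9 in TAI/IVIg mice. Nos2, at chr11:78920787-78960254, measured 32.6, 17.5 and 25.8 FPKM in control, 51.9, 35.3 and 43.1 in TAI and 45.2, 12.7 and 18.5 in TAI/IVIg mice. Both genes put the 9 mice in the same order, apart from TAI mouse 3 and TAI/IVIg mouse 1 changing places. TAI/IVIg mouse 1 was within the TAI range for both, and TAI/IVIg mice 2 and 3 were below every TAI mouse, mouse 2 also below every control mouse.

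The log2 difference of Duox2 was 0.79 (SE 0.42) for TAI against control, -0.21 (SE 0.42) for TAI/IVIg against control and -1.0 (SE 0.42) for TAI/IVIg against TAI. The Nos2 differences in the same order were 0.78, -0.14 and -0.93 (SE 0.41 each). Neither gene was called in this fit. With the replicate block, a pairing that the labels do not give, both were called higher in TAI against control at the same differences. No test is read from these calls. Without TAI/IVIg mouse 1 the differences between the irradiated groups were -1.48 for Duox2 and -1.42 for Nos2, and without TAI/IVIg mouse 2 they were -0.61 and -0.55. About 6.05% of the 50-base stretches of Duox2 exons also occur in Duox1, which stood at no more than 0.834 FPKM.

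Duoxa2, the maturation factor that starts 450 bases from Duox2 on the opposite strand, showed a wider range in the same mice. It measured 25.6, 13.3 and 31.5 FPKM in control, 125, 88.5 and 83.0 in TAI and 96.5, 22.0 and 19.4 in TAI/IVIg mice. Duoxa2 rose 4.25-fold in TAI (log2 difference 2.09, SE 0.56; limma adjusted p = 0.0206), a call that was lost with no filter and without control mouse 2 or TAI mouse 1, with adjusted p up to 0.0761. It was not called in TAI/IVIg against control (0.63, SE 0.56; limma adjusted p = 0.372) or against TAI (-1.46, SE 0.56; limma adjusted p = 0.364). Of its 50-base exon stretches 41.1% overlap the antisense gene Duoxa1, listed at no more than 0.895 FPKM, and the counting is not stated to use strand.

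The ratio of Duox2 to Duoxa2 FPKM, also noticed after the values were seen and not tested, was 1.93 to 2.78 in control, 0.829 to 1.24 in TAI and 0.953 to 2.11 in TAI/IVIg mice. The control and TAI mice did not overlap. Cltb, a clathrin light chain gene, had the pattern most like that of both Nos2 and Duox2 over the 9 mice, at r of 0.939 and 0.941.

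Saa1, at chr7:46740497-46742980, varied widely within groups. It measured 19.9, 1.16 and 8.97 FPKM in control, 21.7, 6.86 and 39.6 in TAI and 7.99, 2.95 and 10.1 in TAI/IVIg mice. The groups overlapped, with mouse 2 the lowest of each. The log2 difference was 1.33 (SE 0.86) for TAI against control, -0.07 (SE 0.86) for TAI/IVIg against control and -1.40 (SE 0.86) for TAI/IVIg against TAI. Without TAI mouse 3 the first and last were 0.80 and -0.86. Within each same-numbered pair Saa1 was higher in the TAI than in the control mouse, in 3 of 3 pairs. With the replicate block it was called higher in TAI at the same log2 difference of 1.33, but not without the block. The labels do not give this pairing, and no test is read from the call.

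TAI mouse 3, the highest for Saa1, also stood apart in adipocyte markers. The 7 markers, led by Cfd and Cidec, summed to 79.9, 134 and 84.2 FPKM in control mice 1, 2 and 3. The sums were 121, 129 and 550 in the TAI mice and 127, 143 and 71.2 in the TAI/IVIg mice. In the control and TAI/IVIg groups mouse 2 had the highest marker sum and the lowest Saa1. Their part in the Saa1 level was not tested. Retn, the resistin gene, is one of these markers and measured 16.0 FPKM in TAI mouse 3 against at most 3.80 in any other mouse. It was not called in any comparison. Of the 50-base stretches of Saa1 exons 31.5% (793) also occur in Saa2 or Saa3. Only 108 stretches of Saa3 exons occur in any other gene, so most of those of Saa1 are shared with Saa2. The effect of this sharing on the level of Saa1 was not measured. Saa2 was listed at no more than 0.187 FPKM and Saa3 at 1.60 to 15.8.

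**Figure D3:**
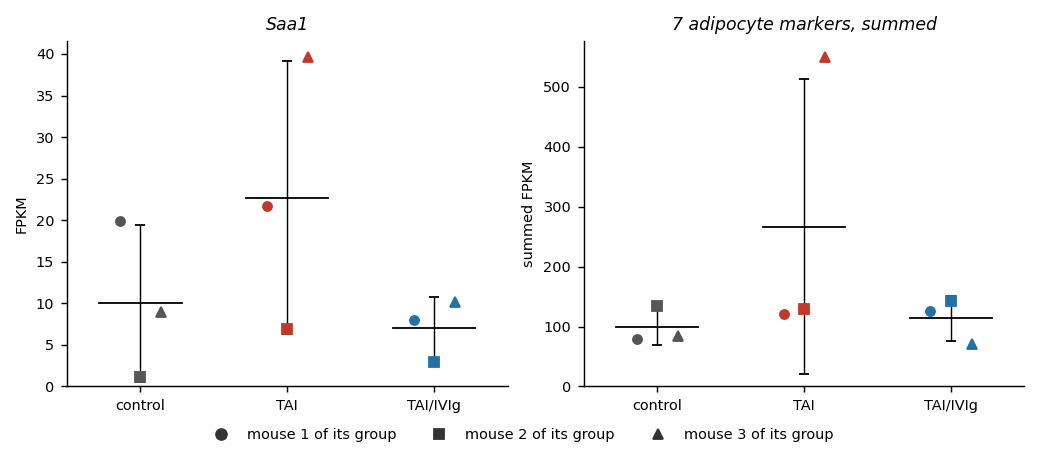
Left, Saa1 in FPKM; right, the summed FPKM of 7 adipocyte markers, with 1 point per mouse, group means and whiskers of 1 SD (n = 3). TAI mouse 3 (triangle) was the highest of all 9 mice in both panels, at 39.6 and 550. In control and TAI/IVIg, mouse 2 (square) was the lowest of its group for Saa1 and the highest for the markers.

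Taking the fit over all 13056 genes as the background, few of these 9 genes were called at an adjusted p under 0.05. In TAI against control Reg3a was called higher and Dmbt1 lower, beside 8.81% of all genes called higher and 26.1% lower. The same genes were called in TAI/IVIg against control, beside 9.06% higher and 37.4% lower. Nothing is read from these counts because the values chose the genes. With the replicate number as a block, Duox2, Nos2 and Saa1 were also called higher in TAI. The labels do not give this pairing, and nothing is read from these calls either. So 5 of the 9 were called, 4 higher and 1 lower. Of all genes 9.12% were called higher and 28.1% lower in that blocked fit.

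By whole groups, Reg3a, Nos2 and Duox2 were higher in all TAI than in all control mice, a separation that 15.1% of all genes showed, and Dmbt1 was lower, as were 38.0% of all genes. TAI/IVIg and control mice were separated by Dmbt1 alone among the 9, beside 11.5% of all genes higher and 44.3% lower. No gene of the 9 separated TAI/IVIg from TAI mice, beside 3.09% of all genes higher and 16.1% lower. In that comparison 0% of all genes were called with limma at the adjusted threshold, and at an unadjusted p under 0.05 it was 1.64% higher and 11.2% lower, with Duox2 the single gene of the 9 (limma voom on recovered reads called 0 as well).

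The median log2 difference of all genes was -0.24 for TAI against control, -0.39 for TAI/IVIg against control and -0.13 for TAI/IVIg against TAI, and 0.05, 0.10 and 0.08 with library medians set equal. The medians of the 9 genes, on the deposited scale, were -0.18, -0.21 and -0.57. With library medians set equal, Reg3b and Reg4 turned to 0.03 and 0.10 in TAI against control. In TAI/IVIg against control Reg1, Saa1, Nos2 and Duox2 turned to 0.07, 0.42, 0.35 and 0.28 under that scaling, and Reg1, Reg3a and Reg3g turned to 0.15, 0.07 and 0.13 in TAI/IVIg against TAI. Reg3b turned under quantile normalization instead, to -0.47 in TAI/IVIg against control and -0.08 in TAI/IVIg against TAI. Dmbt1, Duox2, Nos2, Saa1, Reg3a and Reg3g kept their direction in TAI against control under all alternatives run.

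**Figure D4:**
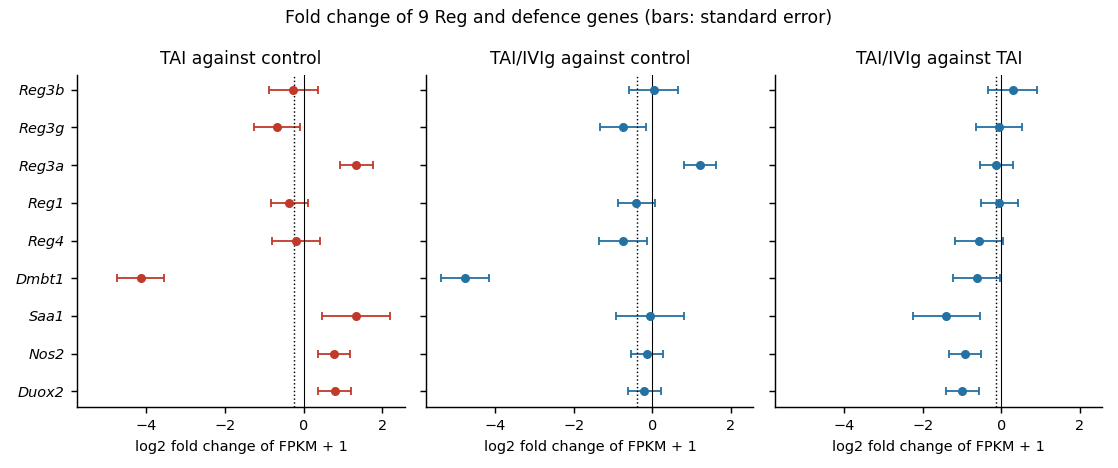
Log2 fold change of FPKM + 1 for the 9 genes in 3 comparisons, with bars of 1 standard error from the limma fit of all 9 mice; the solid line marks 0 and the dotted line the median of all 13056 genes. Dmbt1 stood at -4.14 and -4.77 in the comparisons with control, and Duox2, Nos2 and Saa1 stood to the right of 0 in TAI against control and to the left in TAI/IVIg against TAI.

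In control mice the mean levels per length ran from Reg3b (6995 FPKM) and Reg3g (2596) through Dmbt1 (166), Duox2 (56.2), Reg3a (27.9), Nos2 (25.3), Reg4 (16.7), Saa1 (10.03) and Reg1 (4.44) to Retnlb (0.358). Dmbt1 did not overlap with its neighbours in this order and Retnlb lay below Reg1 in every mouse, while the other neighbours overlapped in their ranges over mice. In TAI mice the mean of Dmbt1 (8.74) lay below those of Duox2 (96.1), Reg3a (68.6), Nos2 (43.4), Saa1 (22.7) and Reg4 (16.5), and its range overlapped those of Saa1 and Reg4.

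Cytokine signals upstream of these genes were examined in lists written with earlier results known. The counts of these lists and of the cell markers below stand beside 8.81% of all genes higher and 26.1% lower in TAI against control. For TAI/IVIg against control the shares of all genes were 9.06% and 37.4%. In the list of the IL-22, IL-17 and STAT3 axis, 8 of 20 genes tested rose and 1 fell in TAI against control, with a median log2 difference of 0.37. Socs3, the feedback inhibitor of STAT3, rose 7.56-fold, from 12.9, 12.9 and 13.05 FPKM to 121, 124 and 76.3 (log2 difference 2.92, SE 0.20; limma adjusted p = 0.00015). The fucosyltransferase Fut2, an IL-22 target in epithelium, rose 3.25-fold (1.70, SE 0.35; limma adjusted p = 0.00747) and the IL-22 receptor chain Il22ra1 2.61-fold (1.38, SE 0.29; limma adjusted p = 0.00771). These folds are of FPKM + 1, and the mean FPKM of Fut2 went from 2.92 in control mice to 11.2 in TAI mice. The receptor chain Il17rc fell by 1.43 on the log2 scale (SE 0.15; limma adjusted p = 0.00056). These 4 calls held under all alternatives run. The ligands Il22, Il17a, Il17f, Il23a and Il6 did not pass the filter, and the highest of them, Il22, stood at 0.0518, 0.255 and 0.26 FPKM in control, 0.894, 1.94 and 2.42 in TAI and 0.2, 0.848 and 0 in TAI/IVIg mice.

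Against control, 5 genes of this list rose and 2 fell in TAI/IVIg mice. Socs3 stood at 89.5, 65.9 and 89.1 FPKM (log2 difference 2.55, SE 0.20; limma adjusted p = 0.000151) and Il22ra1 rose by 1.17 (SE 0.29; limma adjusted p = 0.0107). Fut2 stood at 3.04, 3.75 and 6.65 FPKM and was not called (0.52, SE 0.35; limma adjusted p = 0.243). Fut2 did not overlap between the irradiated groups, with TAI/IVIg lower by a log2 difference of -1.18 (SE 0.35; limma adjusted p = 0.353) that did not pass the threshold. No gene of any pathway list was called in TAI/IVIg against TAI.

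**Figure D5:**
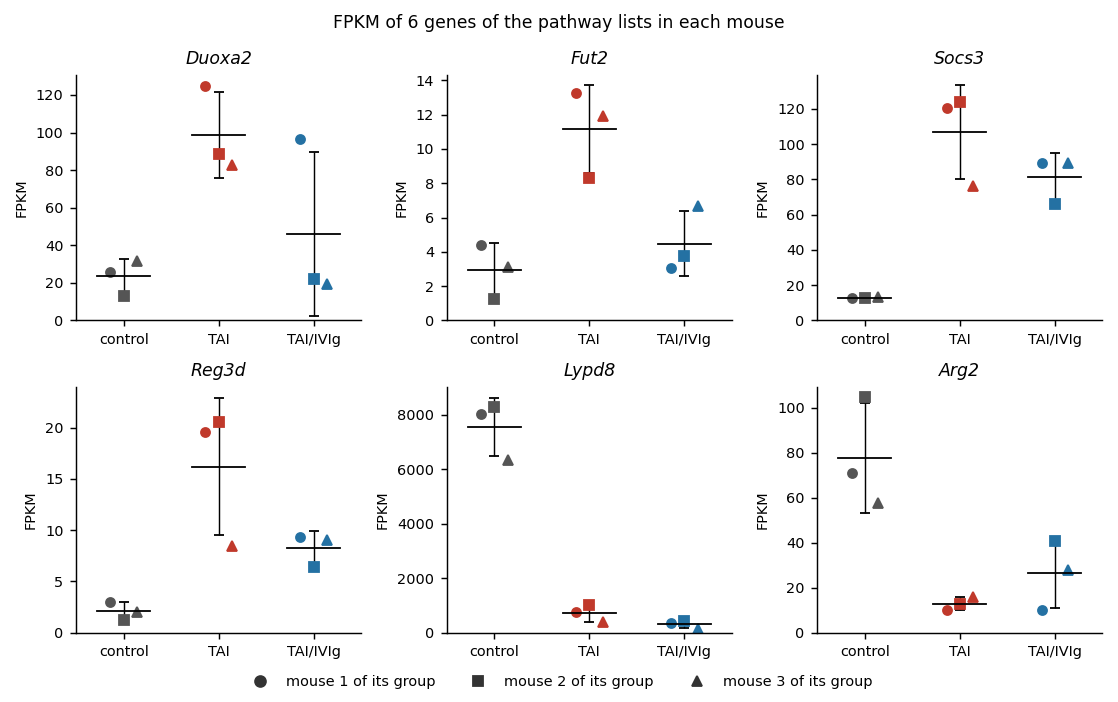
FPKM (linear axes from 0) of 6 genes named from the pathway lists, with 1 point per mouse, its shape giving the mouse number, group means and whiskers of 1 SD (n = 3). Socs3 stood at 12.9 to 13.05 in control and at 65.9 to 124 in the irradiated mice, and Duoxa2 at 96.5 in TAI/IVIg mouse 1 but 22.0 and 19.4 in the other two.

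In the list of microbial sensing and NF-kB, 3 of 26 genes rose and 1 fell in TAI, beside 8.81% and 26.1% of all genes. In TAI/IVIg against control 2 rose and 4 fell, beside 9.06% and 37.4%. Relb, a subunit of the non-canonical NF-kB pathway, rose 1.83-fold in TAI (log2 difference 0.87, SE 0.14; limma adjusted p = 0.00261) and 1.88-fold in TAI/IVIg. The lipopolysaccharide co-receptor Cd14 (0.72, limma adjusted p = 0.0378), the kinase Irak4 (0.37, limma adjusted p = 0.0287) and the lipopeptide receptor Tlr1 (-1.53, limma adjusted p = 0.041) were also called in TAI, but each lost its call without TAI mouse 1 and without TAI mouse 2. The Irak4 call was also lost without control mouse 2 or 3 and with the replicate block in a fit of control and TAI mice only. That of Cd14 was also lost without control mouse 1 or 2, TAI mouse 3 or TAI/IVIg mouse 2, with no filter and in a fit of the 6 mice compared. For Tlr1 it was also lost without control mouse 1 or 3 or TAI mouse 3, with no filter, with library medians set equal and with voom on median-ratio library sizes. Their adjusted p reached 0.12, 0.123 and 0.137.

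In the list of the IFN-gamma and IL-4/IL-13 axis, 3 of 9 genes rose in TAI and 4 in TAI/IVIg against control, and none fell. The alarmin Il33 rose by 1.69 (SE 0.41; limma adjusted p = 0.0145), the receptor chain Il4ra by 1.27 (SE 0.22; limma adjusted p = 0.0036) and the transcription factor Irf1, which acts on the Nos2 promoter, by 0.99 (SE 0.23; limma adjusted p = 0.0113) in TAI. The Il33 call was lost without TAI mouse 1, at an adjusted p of 0.0568.

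Other secreted defence genes moved in both directions. In TAI 3 of 22 rose and 3 fell, beside 8.81% and 26.1% of all genes. In TAI/IVIg against control 1 rose and 7 fell, beside 9.06% and 37.4% of all genes, and nothing particular to this list is read from these counts. The transmembrane mucin Muc13 rose 3.43-fold in TAI (log2 difference 1.78, SE 0.24; limma adjusted p = 0.00156) and 3.75-fold in TAI/IVIg (limma adjusted p = 0.000772). The cytokine Il18 fell by 2.26 (SE 0.39; limma adjusted p = 0.00356) and the peptidoglycan-binding Pglyrp1 by 1.03 (SE 0.23; limma adjusted p = 0.0108) in TAI, and both were also called lower in TAI/IVIg. The mucus proteins Fcgbp (1.32, limma adjusted p = 0.0159) and Zg16 (0.81, limma adjusted p = 0.0212) rose in TAI, and both calls were lost without TAI mouse 2 and without control mouse 3. Fcgbp also lost its call without TAI mouse 1, and Zg16 without control mouse 2 or TAI mouse 3, with no filter and under quantile normalization, and their adjusted p reached 0.0592 and 0.275.

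Among 10 genes listed as partners of the oxidant enzymes, 2 rose and 1 fell in TAI, beside 8.81% and 26.1% of all genes. In TAI/IVIg against control 0 rose and 3 fell, beside 9.06% and 37.4%. Beside Duoxa2, the GTPase Rac1 rose by 0.71 (SE 0.21; limma adjusted p = 0.0291), a call lost with no filter and without TAI mouse 1 or 3 or control mouse 2 or 3. Arg2, a mitochondrial arginase that uses the same substrate as Nos2, fell from 71.0, 105 and 57.5 FPKM in control to 10.3, 12.6 and 15.9 in TAI mice (log2 difference -2.47, SE 0.44; limma adjusted p = 0.0042). It stood at 10.2, 40.9 and 27.98 in TAI/IVIg mice, where it was also called lower (-1.68; limma adjusted p = 0.0139), except with library medians set equal or without control mouse 2. TAI/IVIg mouse 1, within the TAI range for Duox2 and Nos2, was just below the lowest TAI mouse for Arg2.

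Over the union of the pathway lists, 20 of 89 genes rose and 6 fell in TAI, beside the 8.81% and 26.1% of all genes given above. For TAI/IVIg against control the counts were 13 and 16, beside 9.06% and 37.4% of all genes. The lists were written with earlier results of these data known, so no enrichment is read from these counts. The medians over these 89 genes were 0.25, -0.01 and -0.28 in the 3 comparisons. With library medians set equal the splits were 30 higher and 5 lower in TAI, and 30 higher and 7 lower in TAI/IVIg, while those of all genes went from 1150 higher and 3411 lower to 2159 and 1823 in TAI, and from 1183 and 4880 to 2880 and 1894 in TAI/IVIg.

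Markers of other cell types moved with the groups, and their part in the values above was not tested. Enterocyte markers, led by Fabp2 and Apoa1, had 9 of 15 genes called higher in TAI and 11 of 15 in TAI/IVIg against control, and 0 lower. They summed to 16268 to 25826 FPKM in control, 35801 to 56354 in TAI and 50666 to 56353 in TAI/IVIg mice. Of 10 goblet markers, led by Zg16 and Tff3, 3 rose and 2 fell in TAI and 6 fell in TAI/IVIg. Paneth markers had 0 of 12 called in TAI and 1 lower in TAI/IVIg. Enteroendocrine markers, led by Nts and Gip, summed to 154 to 188, 157 to 223 and 194 to 206 FPKM in the 3 groups, with 1 called higher and 2 lower in TAI and 2 in each direction in TAI/IVIg.

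The tissue is labelled as epithelial, and transcripts of other cells were present. Macrophage and monocyte markers, led by Lyz2 and C1qa, summed to 194 to 377 FPKM in control, 144 to 329 in TAI and 85.5 to 312 in TAI/IVIg mice, with 1 of 12 higher and 3 lower in TAI and 3 lower in TAI/IVIg. Plasma and B cell markers, led by Igha and Jchain, summed to 695 to 1228, 473 to 642 and 422 to 636 FPKM, with 0 of 8 called. Neutrophil markers summed to 4.19 to 16.1, 6.32 to 17.7 and 5.56 to 8.15 FPKM, with Ly6g and Mmp9 the highest by mean, and the granule enzyme Mpo was at 0 in 7 of 9 mice. Of the 4 neutrophil markers tested 2 rose in TAI, and 1 rose and 2 fell in TAI/IVIg. Hepatocyte markers, led by Cps1, which the gut also expresses, and Alb, summed to 47.6 to 98.8, 20.1 to 34.9 and 15.2 to 24.9 FPKM, with 1 of 4 lower in TAI and 2 lower in TAI/IVIg. Of 6 adipocyte markers 0 were called in either comparison, and of 2 acinar markers 1 was higher in TAI/IVIg.

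The genes most like the remaining members over the 9 mice, by Pearson r of log2(FPKM + 1) among 13047 genes, were as follows. Reg3b was nearest to Cd2ap (0.955) and Abcb10 (0.896), and Reg3g to Hps5 (0.91) and Upk1b (0.908). Reg3a was nearest to an unnamed gene, ENSMUSG00002075848 (0.964), and Cldn12 (0.957), and Reg4 to Sh2d7 (0.976) and Man1a2 (0.966). Reg1 was nearest to 2610507B11Rik (0.934) and Tep1 (0.903), and Saa1 to Gml (0.936) and AA467197 (0.897). The second genes for Nos2 and Duox2 were 2610528A11Rik (0.935) and Ppp1r15a (0.938). The 9 points share 3 groups and the same libraries, and these values are descriptions.

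The libraries held 16284531 to 18244739 reads as recovered from the FPKM values, and the groups overlapped. Genes with at least 1 FPKM numbered 12198 to 13394 in control, 11828 to 12452 in TAI and 10386 to 11840 in TAI/IVIg mice. TAI/IVIg mice 1 and 3 had the fewest.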

How the data were processed

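Bulk RNA sequencing of jejunum from 9 mice (control, TAI, TAI/IVIg; 3 a group) was analysed, with groups and replicate numbers from the labels. The authors deposited FPKM values, 1 column per mouse, without pooling (0 columns of the table were left out). The submitters' processing notes list FastQC, Trimmomatic, STAR, featureCounts and DESeq2 and the builds mm10 and GRCm38, with no versions; the test behind the authors' gene calls is not given in the sources used here. With exon lengths of GENCODE vM21 (or another whole-number length, needed for 478 genes), the FPKM values of 31124 of 31146 genes (99.93%) were whole reads within 0.05, which gave the depth of each library. Of the 31685 identifiers 31146 had a symbol.

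Log2(FPKM + 1) of the 13056 genes with at least 1 FPKM in at least 3 mice entered one linear model of group means over all 9 mice (limma 3.58.1, trended empirical Bayes step, run under R 4.3.3). Benjamini-Hochberg adjustment ran over all genes within each comparison, and a gene was called at an adjusted p under 0.05. TAI and TAI/IVIg were compared with the same control mice. Folds were taken from the log2 differences and so are folds of FPKM + 1. The steps were tested on simulated data.

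The 10 genes and all gene lists were chosen with earlier results of these data known. Named genes were the 10, up to 3 rises and 3 falls per pathway list among genes called in TAI against control (in a list with none called, its 2 most abundant genes), the 2 most abundant genes of each marker list, tested genes of the Reg and Retn list, and the 2 genes most correlated with each tested member; paralogues, ligands under the filter and markers at or near 0 were named after their values were seen. For same-numbered control and TAI mice, the correlation of deviations from the group mean was 0.271, 0.241 and 0.308. For differently numbered control and TAI mice it ran from -0.336 to 0.146. Same-numbered mice compared with TAI/IVIg mice lay between -0.296 and 0.201. The highest value of all, 0.408, joined TAI/IVIg mouse 2 and control mouse 3. The pairing of control and TAI mice by number was taken from this check and not from the labels. A check on the same data, with 3 mice a group, cannot establish it. Alternatives were another pseudocount, other filters, scalings and fits, a replicate block, and each mouse left out. Promoters came from RefSeq and were searched with Python 3.11.15.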

Additional observations from a re-analysis of the deposited data

How the results depend on the processing

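The fold changes of the 9 genes tested moved by less than 1 SD in 179 of 179 values in TAI against control, 168 of 170 in TAI/IVIg against control and 169 of 170 in TAI/IVIg against TAI. The SD is that between mice. Other filters, the block and leaving out a third-group mouse cannot change these values, so stability is not read from them. No gene changed direction in a comparison where it was called. The sign turned in 10 values in TAI against control (Reg1, Reg3b and Reg4). It turned in 22 in TAI/IVIg against control (Duox2, Nos2, Reg1, Reg3b and Saa1). In TAI/IVIg against TAI it turned in 18 (Dmbt1, Reg1, Reg3a, Reg3b, Reg3g and Reg4). Of the 10 genes, 2 were called in TAI against control. This became 1 with no filter and 5 with a replicate block, whether all mice were in the paired fit or only control and TAI mice (an alternative chosen after seeing the data), and 1 to 3 when 1 mouse was left out, since the Reg3a call was lost without control 1 or 3 or TAI 1 or 2. Over all genes these blocked fits called 4863 and 5038. In TAI/IVIg against control the count went from 2 to 1 in a fit of only the 6 mice compared, and to between 1 and 2 with 1 mouse left out, the Reg3a call being lost without control 1 or 3, TAI 1, or TAI/IVIg 2 or 3. Of all genes, 4561 were called in TAI against control and 2343 to 4902 with 1 mouse left out, the lowest without TAI 1 and the next without control 2 (2614) and control 3 (2761). In TAI/IVIg against control 6063 were called, and 3381 of the 6398 genes with a mean FPKM of at least 5. In TAI/IVIg against TAI 0 were called, 4 with no filter and 3 with the replicate block. Pathway genes called in TAI against control numbered 26, and 15 to 28 with 1 mouse left out, with 15 without TAI 1 and 17 without TAI 2 or control 2. In TAI/IVIg against TAI they numbered 0, and 1 with the replicate block. Limma voom on recovered reads, also chosen after seeing the data, called 0 there. The block changed no other count by over 1.5 times. The cause of these changes was not tested. At 16284531 to 18244739 reads a library, Retnlb had no more than 6 reads in any mouse, and each group held 3 mice.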
